A study of Mus musculus with 12 samples.

Results

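The 10 immediate early genes *Fos*, *Fosb*, *Junb*, *Egr1*, *Egr3*, *Ier2*, *Atf3*, *Dusp1*, *Nr4a1* and *Btg2* were examined in sciatic nerve, out of 43432 genes in the count table. They were taken by gene symbol and joined to the counts by Ensembl identifier, and all 10 were among the 17257 genes with enough counts to be tested. RNA-seq of polyA-selected RNA covered 12 libraries, each from 1 nerve of 1 mouse, with 4 mice per group and, by the study's design, 3 males and 1 female in each group. WT control mice had the genotype *Mtmr2* wt/wt and *Mtmr2* KO mice *Mtmr2* -/-, and the labels give no treatment for either group. The study describes the *Mtmr2* KO mice compared with the niacin group as vehicle treated. The third group was *Mtmr2* -/- as well and received intraperitoneal niacin (120 mg/kg) between postnatal days 10 and 21, followed by slow-release niacin by gavage until day 30, and niacin in WT mice was not analysed here. All mice were 1 month old, and the *Mtmr2* KO line was made on a 129/SvPas background as a model of the demyelinating neuropathy CMT4B1. The loss of *Mtmr2*, a lipid phosphatase of the myotubularin family, is present in every cell of these mice, and a whole nerve holds Schwann cells, fibroblasts, perineurial cells, vessels and immune cells.

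Immediate early genes are transcribed within minutes of a stimulus, from factors that already lie in the cell, and their mRNAs are short-lived. They are switched on by growth factors, calcium, stress and injury through the MAP kinase, SRF and CREB routes, and in nerve they are known from Schwann cell responses to injury and from the handling of tissue. Most encode transcription factors: FOS, FOSB, JUNB and ATF3 are basic leucine zipper proteins that bind DNA as dimers, EGR1 and EGR3 are zinc finger factors, and NR4A1 is an orphan nuclear receptor. IER2 is a nuclear regulator, DUSP1 is a phosphatase that switches off MAP kinases, and BTG2 is an antiproliferative protein that takes part in mRNA deadenylation.

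The libraries held between 20763951 and 33191106 counts, and levels are given as CPM, the counts of a gene relative to the total of its library after TMM scaling. The 10 myelinating Schwann cell markers examined were all at 1 CPM or more in every library. *Mtmr2* itself lay between 128 and 161 CPM in WT libraries and between 66.8 and 73.5 CPM in niacin-treated libraries. In the *Mtmr2* KO group it was at 71.6 CPM in 4501, 84.7 CPM in 4502 and 69.5 CPM in 4504. The library labelled *Mtmr2* KO 4503 had 143 CPM of *Mtmr2*, inside the WT range, and it was kept under its label. The deleted part of the gene was not examined, so these counts check the labels only in part. Library 4502 also stood apart, with 7.0% of its counts on mitochondrial genes as compared with 2.09% to 2.80% in the other libraries without niacin and 3.5% to 5.43% with niacin.

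*Nr4a1* had the highest level per length of the 10 genes in each group. Levels as CPM per kilobase of exon (RPKM) in WT nerves were 29.0 ± 1.84 for *Nr4a1* (SD, n = 4). *Dusp1* followed with 8.64 ± 2.03, *Junb* with 8.42 ± 0.98, *Atf3* with 6.92 ± 1.75 and *Ier2* with 6.76 ± 0.61 RPKM. *Btg2* was at 5.87 ± 0.27, *Fos* at 3.63 ± 0.72 and *Egr1* at 2.99 ± 0.19 RPKM. *Egr3* and *Fosb* were lowest, at 0.44 ± 0.10 and 0.41 ± 0.09 RPKM. In WT libraries the ranges of neighbours in this order overlapped from *Dusp1* through *Ier2*, between *Fos* and *Egr1*, and between *Egr3* and *Fosb*, so the order within these 3 sets was within the spread between mice. *Nr4a1* stood above all others, and the gaps between *Ier2* and *Btg2*, *Btg2* and *Fos*, and *Egr1* and *Egr3* were likewise free of overlap. The range of *Atf3* (4.61 to 8.69 RPKM), not a neighbour of *Btg2*, still held that of *Btg2* (5.57 to 6.19 RPKM). The order of *Atf3* and *Btg2* was thus within the spread between mice as well. In niacin-treated nerves *Junb* came after *Atf3*, with 4.83 ± 1.22 RPKM, while the ranges of both overlapped.

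Promoter sequences were available in the RefSeq table (GRCm38.p6) for 7 of the 10 genes, *Fos*, *Fosb*, *Junb*, *Atf3*, *Dusp1*, *Nr4a1* and *Btg2*. The 250 bases before the annotated start were searched on both strands for short motifs of factors that act on early genes. The core of the cAMP response element (CRE), TGACG, was present in all 7 windows, as compared with 17.8% of the 32851 promoter windows of the same length. The whole CRE, TGACGTCA, which contains that core on both strands, was present in *Dusp1* and *Btg2*, that is 2 of 7, as compared with 1.55% of all windows. The EGR motif GCGNGGGCG was found in *Fosb*, *Nr4a1* and *Btg2*, as compared with 4.7% of all windows. The Sp motif GGGCGG, which overlaps the EGR motif in *Fosb* and *Nr4a1*, was found in 6 of 7 windows, all except *Junb*, and in 32.7% of all windows. TATAAA was found in *Fos* (12.4% of all windows) and CCAAT in *Junb* and *Btg2* (33.8%). The AP-1 motif TGANTCA (6.75% of all windows), the CArG box of SRF (1.47%) and the glucocorticoid receptor core AGAACA (16.1%) were found in none of the 7 windows, which says only that these letters are not in these 250 bases. Windows were not matched for base composition.

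The windows of *Fos*, the most studied gene of the group, of *Junb*, on which the comparisons below turn, of *Nr4a1*, with 4 core motifs, and of *Btg2*, with the whole CRE, are shown because they contain no exon of GENCODE M21. Each runs 5′ to 3′ on the strand of the gene and ends at the base before the start, and capitals mark the CRE core or, in *Btg2*, the whole CRE. In *Nr4a1* the core lies on the opposite strand each time and so reads CGTCA. The window of *Fos* is chr12:85473640-85473889 on the plus strand, that of *Junb* chr8:84978749-84978998 on the minus strand, that of *Nr4a1* chr15:101266596-101266845 on the plus strand and that of *Btg2* chr1:134079156-134079405 on the minus strand. The *Nr4a1* window lies inside the gene as GENCODE draws it, in an intron of longer transcripts.
Fos: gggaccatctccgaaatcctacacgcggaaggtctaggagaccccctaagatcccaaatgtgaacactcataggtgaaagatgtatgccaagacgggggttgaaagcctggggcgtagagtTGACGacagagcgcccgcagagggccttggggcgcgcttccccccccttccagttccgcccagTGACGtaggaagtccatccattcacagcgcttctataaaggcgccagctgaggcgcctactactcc
Junb: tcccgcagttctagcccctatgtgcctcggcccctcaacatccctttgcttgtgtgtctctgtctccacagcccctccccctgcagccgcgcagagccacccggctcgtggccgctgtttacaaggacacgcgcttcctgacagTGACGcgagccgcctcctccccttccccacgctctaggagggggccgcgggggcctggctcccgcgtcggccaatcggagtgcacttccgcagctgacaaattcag
Nr4a1: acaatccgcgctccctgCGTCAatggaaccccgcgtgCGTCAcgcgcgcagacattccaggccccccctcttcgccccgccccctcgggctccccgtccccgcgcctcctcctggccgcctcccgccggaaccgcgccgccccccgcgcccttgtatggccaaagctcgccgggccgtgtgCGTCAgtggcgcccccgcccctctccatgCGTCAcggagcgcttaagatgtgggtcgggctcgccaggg
Btg2: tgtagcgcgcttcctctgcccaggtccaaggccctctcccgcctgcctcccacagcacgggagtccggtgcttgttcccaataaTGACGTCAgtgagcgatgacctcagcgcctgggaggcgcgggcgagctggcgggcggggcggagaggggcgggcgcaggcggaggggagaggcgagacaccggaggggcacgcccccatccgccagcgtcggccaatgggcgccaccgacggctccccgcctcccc

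The first comparison asked whether loss of *Mtmr2* changed these genes in the nerve. None of the 10 was called in *Mtmr2* KO as compared with WT nerves by edgeR's quasi-likelihood test at an adjusted p under 0.05, and 1 (*Junb*) had an unadjusted p under 0.05. Over all genes tested, 0.267% were called and 17.2% had an unadjusted p under 0.05. Nor did any of the 10 separate the groups with all 4 libraries of one on one side of the other, which 9.32% of all genes did. The median log2 fold change of the 10 genes was 0.22 and that of all genes 0.03. Levels in a whole nerve do not tell a change in the number of cells of a type from a change in RNA per cell, here and in the comparisons below.

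Among the AP-1 genes, *Junb* was at 16.9, 18.6, 19.6 and 22.3 CPM in WT nerves. In *Mtmr2* KO nerves it was at 25.9, 18.2, 51.4 and 24.0 CPM in 4501 to 4504. The 3 libraries other than 4502 lay above every WT library, and 4503 was highest by far. Its log2 fold change was 0.63 (SE 0.27) with an edgeR adjusted p of 0.260, and 0.23 without 4503. *Fos* was at 10.3, 6.29, 8.35 and 9.16 CPM in WT and at 12.2, 7.13, 6.86 and 13.9 CPM in *Mtmr2* KO nerves, so that the KO group fell into a high and a low pair on either side of most WT libraries. *Fosb*, a low gene with 22 to 114 counts in a library, was at 2.07, 3.42, 2.47 and 2.29 CPM in WT and at 0.80, 1.93, 0.99 and 4.71 CPM in *Mtmr2* KO nerves. *Atf3*, which is induced by nerve injury, was at 9.93, 18.7, 16.6 and 14.4 CPM in WT nerves. It was at 22.9, 23.3 and 21.7 CPM in the *Mtmr2* KO libraries 4501, 4502 and 4504, all above WT, and at 7.79 CPM in 4503, below WT. The log2 fold change of *Atf3* was 0.34 (SE 0.31, edgeR adjusted p = 0.595) and 0.60 without 4503 (adjusted p = 0.200).

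The zinc finger and nuclear receptor genes were likewise uneven within the *Mtmr2* KO group. *Egr1* lay between 12.4 and 14.3 CPM in WT nerves. In *Mtmr2* KO nerves it was at 18.5, 6.37, 6.44 and 22.2 CPM, with each library outside the WT range. The KO mean, 13.4 ± 8.19 CPM, was close to the WT mean of 13.4 ± 0.86 CPM (SD, n = 4), and the log2 fold change of -0.01 (95% interval -0.83 to 0.82) turned to 0.0035 under DESeq2's size factors. *Egr3* was at 1.49, 2.12, 2.43 and 1.64 CPM in WT and at 2.93, 1.61, 0.45 and 1.92 CPM in *Mtmr2* KO nerves, where the lowest library was 4503 with 14 counts. *Nr4a1* was at 99.3, 98.8, 111 and 97.6 CPM in WT and at 106, 98.7, 215 and 125 CPM in *Mtmr2* KO nerves, where 4503 again stood alone (log2 fold change 0.42, SE 0.23, and 0.11 without 4503).

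*Ier2* was at 9.64, 9.60, 11.6 and 10.4 CPM in WT and at 10.6, 6.05, 12.8 and 9.77 CPM in *Mtmr2* KO nerves, with 4502 lowest. The phosphatase gene *Dusp1*, which shares 11 of its 3311 exon bases with *Ergic1* on the opposite strand (21.7 to 60.1 CPM), was at 21.3, 37.1, 25.8 and 30.2 CPM in WT and at 25.3, 21.7, 65.8 and 32.8 CPM in *Mtmr2* KO nerves. *Btg2* was at 15.7, 17.0, 15.3 and 16.4 CPM in WT and at 18.6, 15.2, 26.3 and 13.7 CPM in *Mtmr2* KO nerves. In both genes 4503 was the highest of the 12 libraries and the other KO libraries lay around the WT values. The log2 fold changes of these 3 genes were -0.07, 0.35 and 0.20, and that of *Dusp1* was -0.11 and that of *Btg2* -0.02 without 4503, while *Ier2* turned to 0.10 without 4502.

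**Figure D1:**
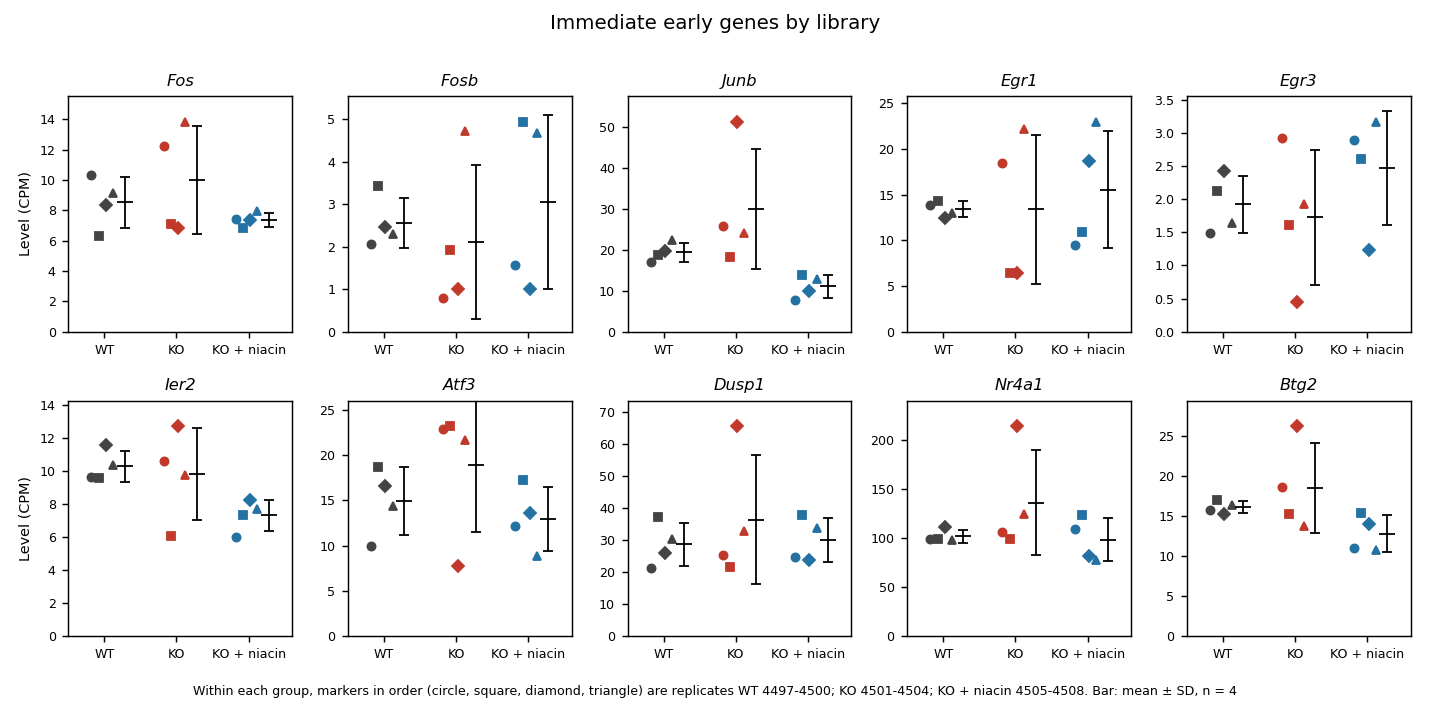
Level of each of the 10 immediate early genes in CPM (y axis, from 0, with its own scale in each panel) in the 4 libraries of each group (WT, KO, and KO with niacin), with 1 marker per library and the mean ± SD beside them. The KO group is the most scattered in most panels, with 4503 (diamond) on top for *Junb*, *Ier2*, *Dusp1*, *Nr4a1* and *Btg2*, and the niacin-treated libraries of *Junb* lie below all others.

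The second comparison asked which of these genes differed in *Mtmr2* KO nerves after niacin. *Junb*, whose protein pairs with FOS proteins in AP-1, fell. It was at 7.64, 13.8, 10.1 and 13 CPM in niacin-treated nerves (4505 to 4508), below all 4 *Mtmr2* KO libraries and also below all 4 WT libraries. The mean was 11.1 ± 2.81 CPM as compared with 29.9 ± 14.7 CPM in *Mtmr2* KO nerves (SD, n = 4 each), and the log2 fold change was -1.43 (SE 0.28, 95% interval -2.03 to -0.83, edgeR adjusted p = 0.0401). An exact two-sided permutation test of its log2 level gave p = 0.0286, the smallest that 4 against 4 libraries allow. *Junb* was the 1 gene of the 10 that was called and the 1 whose groups did not overlap, and over all genes tested 1.43% were called (0.73% as lower) and 7.01% did not overlap.

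The direction of *Junb* was the same in all 21 other analyses, with log2 fold changes from -1.62 to -1.03 and adjusted p from 0.000158 to 0.174, and it was called in 9 of them. Without 4503 it was -1.03 (adjusted p = 0.0686), and the call was also lost without 4501, without any 1 of the WT or any 1 of the niacin-treated libraries, with *Xist* as a covariate and in edgeR on the 2 groups alone. In these 12 analyses edgeR called 0 to 139 of all genes (0 in 6 of them), as compared with 246 on all 12 libraries, and 2249 to 3377 genes had an unadjusted p under 0.05. *Junb* was called with 4502 and 4503 both left out (-1.17, adjusted p = 0.00974, 12.5% of all genes called). The plot of *Junb* under each analysis shows these values. *Junb* (ENSMUSG00000052837, chr8:84974484-84978718 on the minus strand, GRCm38) shares 173 of its 2301 exon bases with *Prdx2* on the opposite strand, and no source used here says whether the authors counted by strand. *Prdx2* was between 112 and 152 CPM in niacin-treated, between 83.7 and 110 CPM in WT and between 68.1 and 154 CPM in *Mtmr2* KO nerves. The part of this overlap in the counts of *Junb* was not tested.

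**Figure D2:**
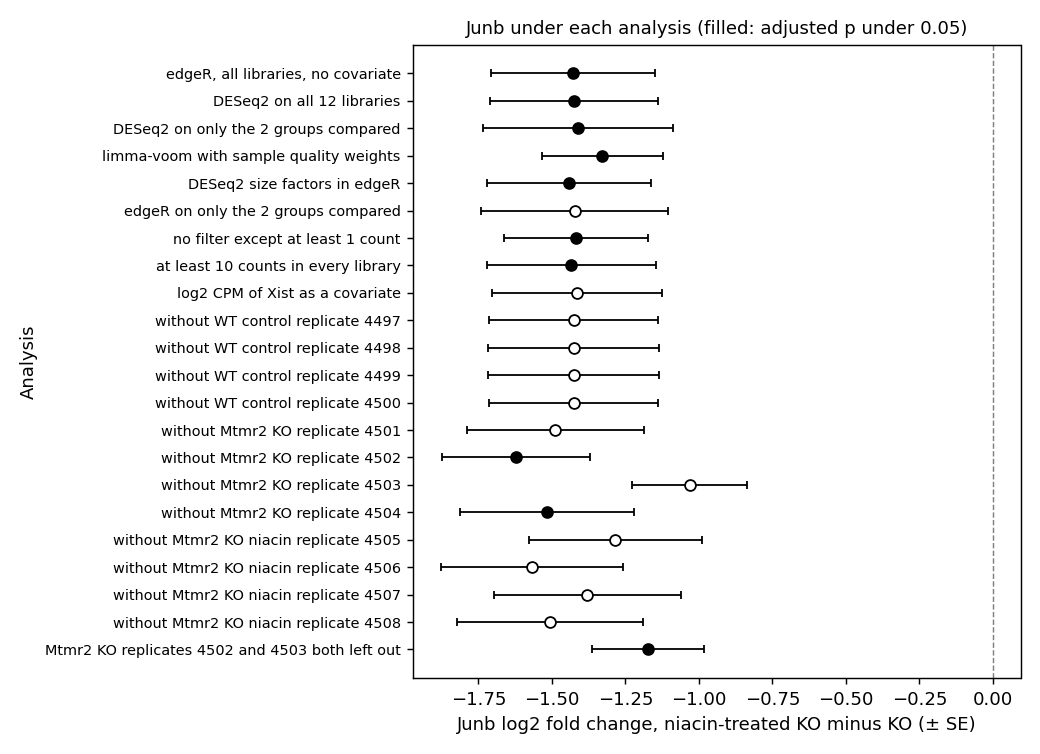
Log2 fold change of *Junb* in niacin-treated *Mtmr2* KO as compared with *Mtmr2* KO nerves (x axis, ± SE) in the main analysis (top) and each of the 21 others (y axis), filled where the adjusted p was under 0.05. All lie below 0, between -1.62 and -1.03, and 9 of the 21 others are filled.

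For the other 9 genes the groups overlapped and none was called. Their log2 fold changes ran from -0.54 in *Atf3* to 0.56 in *Fosb*. Of the 10 genes, 7 had a lower fitted level after niacin and 3 (*Fosb*, *Egr1* and *Egr3*) a higher one, with a median of -0.43 as compared with -0.04 over all genes (-0.22 as compared with -0.03 without 4503). *Btg2* was at 11, 15.4, 14 and 10.7 CPM after niacin, and 3 of these 4 libraries lay below every WT library, while *Btg2* in 4506 was inside the WT range (log2 fold change against *Mtmr2* KO -0.53, SE 0.19, edgeR adjusted p = 0.152). *Ier2* was at 6.02, 7.33, 8.22 and 7.72 CPM after niacin and overlapped the KO group through 4502 alone (-0.42, SE 0.20, edgeR adjusted p = 0.256). Without 4502, *Junb* (-1.62, adjusted p = 0.00458), *Btg2* (-0.63, adjusted p = 0.0321) and *Ier2* (-0.61, adjusted p = 0.0123) were called by edgeR, where 23.6% of all genes were called.

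*Fos* was at 7.40, 6.81, 7.36 and 7.94 CPM after niacin, a narrow range close to the low pair of *Mtmr2* KO libraries (log2 fold change -0.44, SE 0.23). *Atf3* was at 12.2, 17.3, 13.6 and 8.79 CPM, below the 3 high KO libraries and above 4503. With 4502 and 4503 both left out, *Fos* (-0.83, adjusted p = 0.0170), *Junb* and *Atf3* (-0.79, adjusted p = 0.0497) were called lower by edgeR, which then rests on 2 *Mtmr2* KO mice. *Fosb* was at 1.57, 4.94, 1.01 and 4.68 CPM, with 2 high and 2 low libraries on either side of the WT range. *Egr1* was at 9.50, 10.9, 18.7 and 23.0 CPM, also outside the WT range in all 4 libraries, but 4507, low for *Fosb*, was high for *Egr1*. *Egr3* was at 2.89, 2.6, 1.23 and 3.17 CPM, with 4507 lowest. *Nr4a1* was at 110, 123, 81.9 and 77.5 CPM and *Dusp1* at 24.7, 37.8, 23.7 and 33.8 CPM, and both overlapped the KO and the WT libraries.

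**Figure D3:**
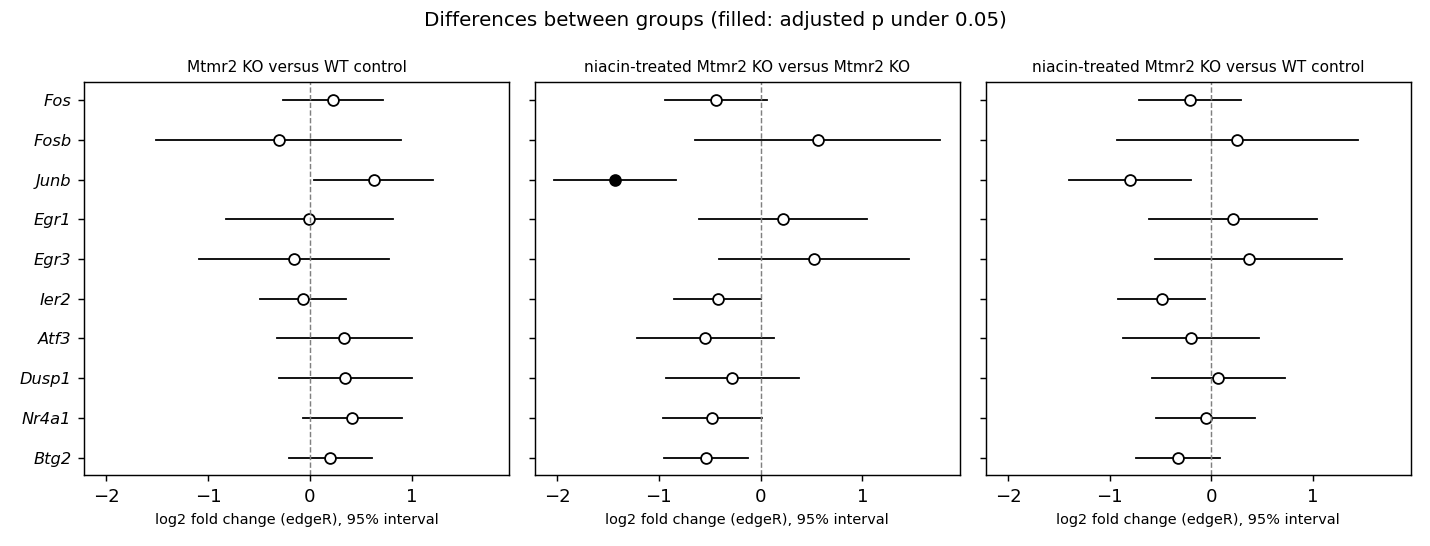
Log2 fold change (x axis) of each of the 10 genes (y axis) in the 3 comparisons with its 95% interval from edgeR, filled where the adjusted p was under 0.05. *Junb* in niacin-treated as compared with *Mtmr2* KO nerves, at -1.43, is the 1 filled point, and the widest intervals are those of *Fosb*, *Egr1* and *Egr3*.

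In niacin-treated *Mtmr2* KO as compared with WT nerves, none of the 10 genes was called by edgeR on all 12 libraries, where 0% of all genes were called and 4254 had an unadjusted p under 0.05. This comparison shares the niacin-treated libraries with the one before and the WT libraries with the first. *Junb* (log2 fold change -0.80, SE 0.28, edgeR adjusted p = 0.129) and *Ier2* (-0.49, SE 0.20, edgeR adjusted p = 0.168) lay below WT in all 4 libraries, and no other gene of the 10 separated the groups. Over all genes 31.4% did not overlap, 16.6% with the niacin group lower, so that 2 of 10 was a share near the background. The median of the 10 genes was -0.13 and that of all genes 0.02. When edgeR was fitted on these 2 groups alone, without the scattered *Mtmr2* KO libraries, *Junb* (-0.79, adjusted p = 0.00631) and *Ier2* (-0.48, adjusted p = 0.0153) were called, as were 33.9% of all genes. limma-voom with sample quality weights called the same 2 genes and 42.4% of all genes, and DESeq2 on the 2 groups called these and *Btg2* (-0.35, adjusted p = 0.0491) and 36.9% of all genes.

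The SD of the log2 level between the 4 libraries had a median over the 10 genes of 0.67 in *Mtmr2* KO, 0.36 in niacin-treated and 0.23 in WT nerves. Over all genes tested it was 0.40, 0.22 and 0.16, so that the median of the 10 genes was above that of all genes in each group. Without 4503 the *Mtmr2* KO medians were 0.36 for the 10 genes and 0.36 for all genes. Of the 10 genes, 4503 was the highest of the 12 libraries for 5 (*Junb*, *Ier2*, *Dusp1*, *Nr4a1* and *Btg2*) and the lowest for *Egr3* and *Atf3*. Against the WT mean, *Junb* in 4503 was higher by 1.41 on the log2 scale, *Dusp1* by 1.23 and *Nr4a1* by 1.08, while *Egr3* was lower by 1.90. The libraries 4501 and 4504 were above the WT mean for 8 of the 10 genes each, 4503 for 5 and 4502 for 1. After niacin, 4505 was above the WT mean for 2 of the 10 genes, 4506 for 5, 4507 for 1 and 4508 for 4. Of the niacin-treated libraries, 4505 was lowest of the 12 for *Junb* and *Ier2*, and 4508 was lowest for *Nr4a1* and *Btg2* and highest for *Egr1* and *Egr3*.

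**Figure D4:**
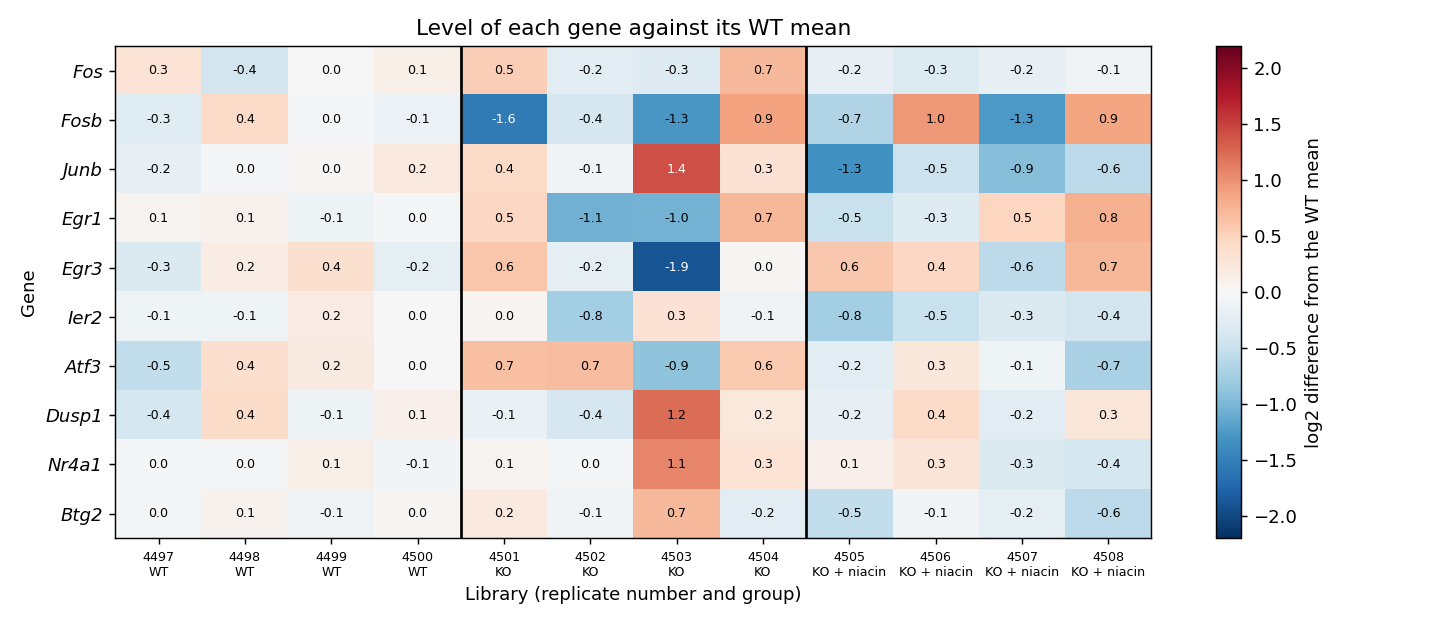
Log2 level of each gene (rows) in each of the 12 libraries (columns, with WT on the left, KO in the middle and KO with niacin on the right) minus its WT mean, printed in each cell and coloured from blue (lower) to red (higher). Column 4503 holds both the deepest red (*Junb*, 1.41) and the deepest blue (*Egr3*, -1.90). In no column do all 10 genes lie on the same side of the WT mean, but in 4502 and 4507 only 1 lies above it.

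The 10 genes did not vary as 1 unit. Over the 12 libraries the Pearson correlation of log2 CPM was above 0.5 in 9 of the 45 pairs and below 0 in 22, with a median of 0.10. Without 4503 these were 11 pairs, 14 pairs and 0.18. These are descriptions over libraries that share group, depth and tissue composition. With 4503, *Junb* and *Btg2* were the closest pair (r = 0.85, and 0.72 without 4503), followed by *Junb* and *Ier2* (0.77, and 0.69 without 4503). *Dusp1* and *Nr4a1* (r = 0.71), *Nr4a1* and *Btg2* (0.71), *Junb* and *Nr4a1* (0.69) and *Dusp1* and *Btg2* (0.54) were as close only with 4503, and without it these were 0.18, 0.28, 0.31 and -0.05. *Fos* and *Egr1*, both known targets of SRF, kept r = 0.51 without 4503 as compared with 0.55 with it. Without 4503 the closest pair was *Fosb* and *Dusp1* (r = 0.75, and 0.13 with it), and *Atf3* and *Btg2* (0.60, and -0.04 with it), *Fos* and *Junb* (0.59, and 0.24) and *Junb* and *Atf3* (0.58, and -0.01) were also above 0.5. *Egr3* ran opposite to *Btg2* (r = -0.71, and -0.29 without 4503). The genes outside the 10 whose level was most like the mean of the 10 standardised levels over the 12 libraries were *AI854703* (r = 0.89), *Tcf7* (0.87), *Gpr19* (0.87), *Rarg* (0.87) and *Mepce* (0.86), and without 4503 these were between 0.85 and 0.89. They were picked by this r among all genes tested, and the values without 4503 come from libraries used in that choice. The mean followed the 10 genes unevenly, with r from -0.07 for *Egr3* to 0.75 for *Junb*.

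Other genes of the early response and of the routes that drive it were taken from 11 lists with 118 tested genes. In *Mtmr2* KO as compared with WT nerves none of the 118 was called. After niacin as compared with *Mtmr2* KO, 2 of the related genes were called, both lower, that is 2 of 118 beside 1.43% of all genes, a share near it. In the same comparison 11 of the 118 did not overlap between the groups, beside 7.01% of all genes. Against WT, 46 of the 118 did not overlap after niacin, beside 31.4% of all genes. *Ppp1r15a*, a regulatory subunit of the phosphatase that restores translation after stress, was at 41.4, 45.5, 35.5 and 29.3 CPM in niacin-treated nerves. In *Mtmr2* KO nerves it was at 83.1, 50.6, 82.6 and 75.1 CPM and in WT nerves between 58.6 and 63.2 CPM, so that niacin-treated nerves lay below both groups (against KO -0.94, SE 0.17, edgeR adjusted p = 0.0401). *Nr4a2*, a nuclear receptor of the family of *Nr4a1*, was at 55.6, 75.8, 57.0 and 66.7 CPM after niacin and at 144, 80.9, 180 and 94.5 CPM in *Mtmr2* KO nerves, with WT between 86.6 and 109 CPM (against KO -0.97, SE 0.22, edgeR adjusted p = 0.0460). *Nr4a1* itself overlapped between the same groups. Like *Junb*, both kept their direction in the 21 other analyses and lost the call in many, being called in 11 for *Ppp1r15a* (adjusted p from 0.00029 to 0.174) and in 9 for *Nr4a2* (adjusted p from 0.00245 to 0.191). *Gadd45b*, a stress-induced gene chosen after its values were seen, was at 4.95, 8.67, 7.68 and 5.79 CPM after niacin, below every KO and WT library (against KO -1.17, SE 0.27, edgeR adjusted p = 0.0515). Without 4503, none of these 3 genes was called, where 13 of all genes were, with -0.88 for *Ppp1r15a*, -0.74 for *Nr4a2* and -0.80 for *Gadd45b*.

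**Figure D5:**
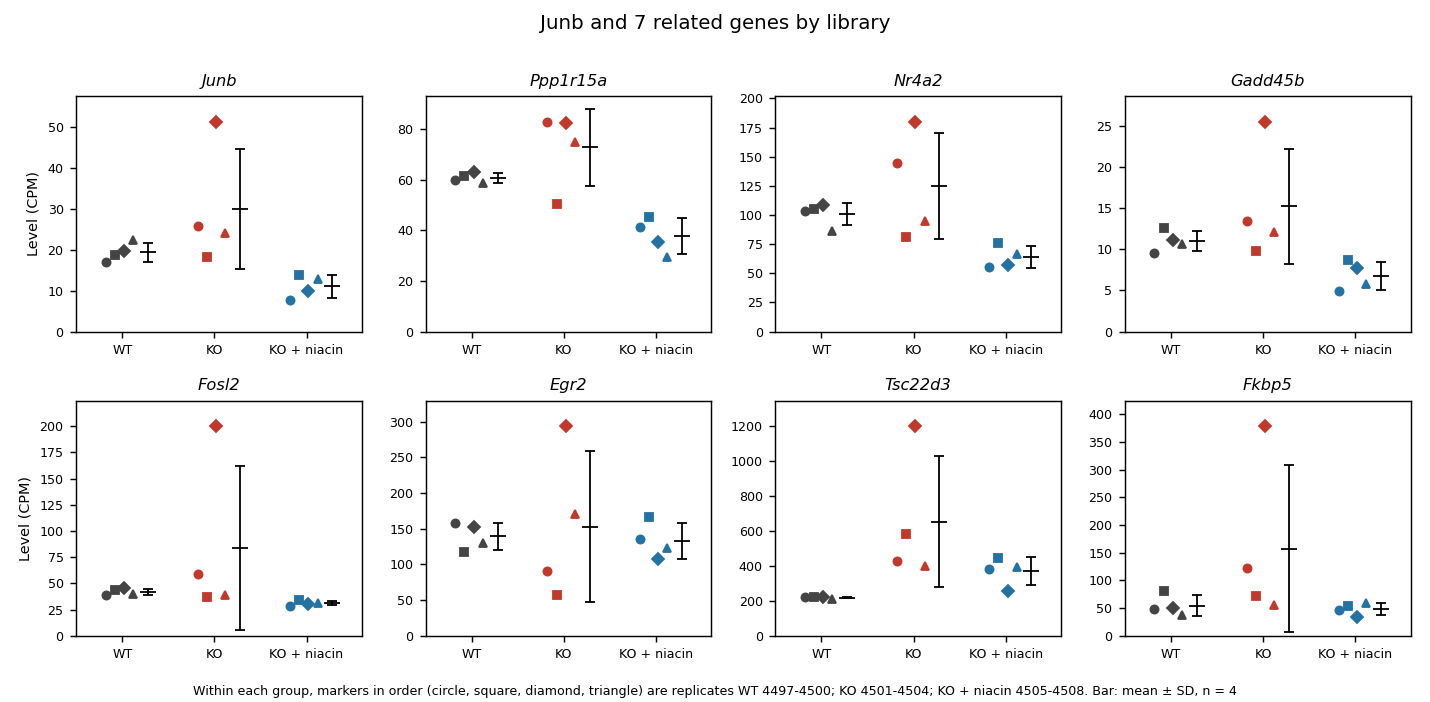
Level in CPM (y axis, from 0, own scale in each panel) of *Junb*, of 3 early response genes (*Ppp1r15a*, *Nr4a2*, *Gadd45b*), of *Fosl2* and *Egr2*, and of the glucocorticoid-induced *Tsc22d3* and *Fkbp5*, by library with mean ± SD (n = 4). In the upper panels the 4 niacin-treated libraries lie below all others, and in the lower panels 4503 (diamond, *Mtmr2* KO) lies above all others.

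Of the 12 other AP-1 subunits none was called in any comparison by edgeR, with medians of 0.16, -0.20 and -0.19 in the 3 comparisons in the order above. *Jund* ranged from 59.0 to 112 CPM over the 12 libraries and *Mafg* from 37.4 to 64.3 CPM. *Fosl2*, a FOS-related subunit, was at 200 CPM in 4503 and between 28.8 and 58.6 CPM in the others, and after niacin it lay below all KO libraries (-1.43, SE 0.42, edgeR adjusted p = 0.0968, and -0.53, SE 0.15, adjusted p = 0.146 without 4503). Among the 5 tested EGR and NR4A relatives and corepressors, *Egr2*, the master factor of Schwann cell myelination, was at 294 CPM in 4503 and 57.0 CPM in 4502 and between 91.2 and 170 CPM in the other libraries. *Nab1*, a corepressor of EGR factors, was lowest in 4503, at 111 CPM, and reached 172 CPM in 4505.

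Of the 24 other early response regulators tested, 22 had a lower fitted level after niacin than in *Mtmr2* KO nerves with 1 called (*Ppp1r15a*), and the median was -0.37 beside -0.04 over all genes. Without 4503, 16 of the 24 were lower and the median was -0.16 beside -0.03. *Rhob*, a small GTPase, ranged from 115 CPM in 4502 to 456 CPM in 4503, *Mcl1*, an anti-apoptotic gene, from 148 to 214 CPM and *Klf6* from 121 to 161 CPM. The 10 secreted early products had a median of 0.18 in the same comparison with none called, and *Thbs1*, *Hbegf* and *Ccn1* lay between 32.1 and 73.5, 27.0 and 62.8, and 21.4 and 67.6 CPM. None of the 10 other DUSP phosphatases (median -0.17), *Dusp3*, *Dusp16* and *Dusp6* among them, nor of the 4 BTG and TOB proteins (median -0.35), *Btg1*, *Tob2* and *Tob1* among them, was called. *Dusp3* was lowest in 4503, at 54.0 CPM, where *Dusp1* was highest.

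The routes upstream showed no called gene either. The 13 SRF, TCF, MRTF and CREB factors had a median of -0.18 after niacin as compared with *Mtmr2* KO, and *Creb1*, *Crtc3* and *Elk4* ranged over 54.3 to 92.9, 43.8 to 87.4 and 49.7 to 72.2 CPM. The 17 MAP kinases had a median of -0.07, and *Mapk3*, the gene of ERK1, was between 403 and 799 CPM, with *Araf* between 93.4 and 137 CPM. The 6 feedback inhibitors of ERK had a median of -0.01, and *Spred1*, *Spry2* and *Spry1* were between 48.0 and 81.4, 14.9 and 41.4, and 15.0 and 32.0 CPM. The summed level of the inhibitors was lowest in 4503, at 114 CPM, as compared with 132 to 205 CPM elsewhere.

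The summed levels of the glucocorticoid and heat shock lists were each highest in 1 library. The 9 genes induced by glucocorticoids summed to 4965 CPM in 4503, as compared with 1167 to 1313 CPM in WT, 1610 to 1743 CPM in the other *Mtmr2* KO and 1112 to 1707 CPM in niacin-treated libraries. In 4503 *Tsc22d3* was at 1200 CPM, *Cdkn1a* at 899 CPM and *Sgk1* at 1142 CPM. *Tsc22d3* was also at 430, 579 and 398 CPM in 4501, 4502 and 4504, and between 212 and 224 CPM in WT nerves. It was 1 of 2 genes of the 9 with every KO library above every WT library, as were 3.85% of all genes. With 4503, all 9 had a higher fitted level in *Mtmr2* KO than in WT nerves (median 1.02) and a lower one after niacin (median -0.82), and none was called. Without 4503, 7 of 9 were higher in *Mtmr2* KO (median 0.17), with *Zbtb16* and *Klf9* lower, and 6 of 9 were lower after niacin (median -0.34), with *Sgk1*, *Errfi1* and *Per1* higher. The 10 heat shock genes summed to 3033 CPM in 4502 as compared with 1262 to 1945 CPM in the others, with *Hspa8* (1266 CPM), *Hsp90aa1* (689 CPM) and *Hspa5* (666 CPM) highest there. *Hspe1* (122 CPM) and *Hspd1* (180 CPM) were also highest in 4502. *Hspa1a* (2.65 CPM), *Hspa1b* (5.56 CPM), *Hspb1* (36.3 CPM), *Dnajb1* (31.0 CPM) and *Hsph1* (33.4 CPM) were below every WT library in 4502. The part of both lists in the results for the 10 immediate early genes was not tested.

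Markers of other cells also differed between the niacin-treated and the *Mtmr2* KO libraries in which *Junb* fell. Of 8 skeletal muscle markers 6 were called higher by edgeR, as were 0.695% of all genes. All 8 had a higher fitted level, and 4 of the 8 were at 1 CPM or more in every library. Their sum was 3045 CPM in 4506 and 3119 CPM in 4507 as compared with 10.5 to 98.9 CPM in the other 10 libraries. *Junb* was at 13.8 and 10.1 CPM in these 2 libraries and at 7.64 and 13 CPM in the other 2. Of 5 mast cell markers 4 were called higher and 1 had a lower fitted level. The 5 summed to 84.3 to 100 CPM after niacin, 43.7 to 64.1 CPM in *Mtmr2* KO and 52.4 to 97.2 CPM in WT nerves. Of 7 adipocyte markers 1 was called higher and all 7 had a higher fitted level. The 7 summed to 2130 to 4318, 731 to 4490 and 2562 to 3368 CPM in the same order of groups. None of the 10 myelinating Schwann cell markers was called, but all 10 had a lower fitted level after niacin (median -0.58), with sums of 66177 to 106715 CPM as compared with 94164 to 127947 CPM in *Mtmr2* KO nerves. The 6 endothelial markers summed to 239 to 360 CPM after niacin, 216 to 564 CPM in *Mtmr2* KO and 458 to 511 CPM in WT nerves, with none called. Without 4503 none of the markers of skeletal muscle, mast cells or adipocytes was called, where 13 of all genes were, and 8 of 8, 4 of 5 and 7 of 7 had a higher fitted level after niacin. In *Mtmr2* KO as compared with WT nerves, 2 of the 7 adipocyte markers were called lower, beside 0.22% of all genes. All 7 had a lower fitted level, with and without 4503, and none was called without it, where 6 of all genes were. With all 12 libraries, 5 of the 10 myelinating Schwann cell markers had every KO library above every WT library, as did 3.85% of all genes. None of these 10 was called, and 2 had a lower fitted level in KO. The mitochondrial share was above the WT range in all 4 niacin-treated libraries. The part of these cells and of this share in the fall of *Junb* was not tested.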

How the data were processed

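RNA-seq of sciatic nerve covered 12 libraries, each from 1 mouse, in 3 groups of 4 given by the labels. The authors mapped reads to GRCm38 with STAR (CASAVA 1.9 and DESeq2 are also named in the submitters' processing notes) and deposited raw counts per Ensembl gene. No source used here names the counting program, the annotation or the strand setting. DESeq2 tables deposited by the authors hold fold changes and p-values, and only the gene symbols were taken from these. All columns of counts were used.

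Counts were filtered with filterByExpr in edgeR 4.0.16 (R 4.3.3), scaled by TMM, and fitted by quasi-likelihood in 1 model of all 12 libraries with the group as its only term. Tests were two-sided, with Benjamini-Hochberg adjustment over 17257 genes. Log2 levels used a prior count of 2, and 0.1 CPM was added for correlations between pairs of genes. Exact permutation tests used all 70 draws of 4 from 8 libraries. Positions and exon lengths came from GENCODE M21. Alternatives were DESeq2 1.42.0, limma-voom (limma 3.58.1), other size factors and filters, an *Xist* covariate, and libraries left out. Scripts were tested on simulated data.

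The 10 genes and the related lists were chosen with earlier results of these data known. Named were the 10 genes, *Mtmr2*, the 3 genes with the highest CPM of each related list (a choice that compares no level per length), related genes that were called, and the 5 genes most like the mean of the 10. Of these, 1 gene is not reported here. *Gadd45b*, *Dusp4*, *Fkbp5*, *Zbtb16*, *Klf9*, *Errfi1* and *Per1* were picked with their values in view, as were the heat shock genes other than *Hspa8*, *Hsp90aa1* and *Hspa5*. The values of the lists, the spread and the likeness without 4503 were added after seeing the data.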

Additional observations from a re-analysis of the deposited data

Results flagged for a closer look

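Each of the 10 genes was examined in each group of 4 libraries for a highest or lowest library whose gap to its neighbour, as a share of the range of the group, was above Dixon's 95% critical value. Of the 30 sets of 4 libraries, 2 met this, and chance gives about 1 in 20. *Atf3* was at 7.79 CPM in *Mtmr2* KO 4503, with the other 3 libraries of the group between 21.7 and 23.3 CPM. *Nr4a1* was at 111 CPM in WT control 4499, with the other 3 between 97.6 and 99.3 CPM.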

How the results depend on the processing

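No paired analysis was possible because every library has a number of its own, shared with no other group. In *Mtmr2* KO as compared with WT none of the 10 genes was called in any of the 21 other analyses. In niacin-treated as compared with *Mtmr2* KO nerves, the number called went from 1 to 0 in edgeR on the 2 groups alone and with *Xist* as a covariate, to 3 with 4502 and 4503 both left out (chosen after seeing the data), and ranged from 0 to 3 when 1 library was left out. Of all genes, 12.5% were called with both left out and 23.6% without 4502. In niacin-treated *Mtmr2* KO as compared with WT it went from 0 to 3 in DESeq2 on the 2 groups, to 2 in limma-voom, in edgeR on the 2 groups and with 4502 and 4503 both left out, and ranged from 0 to 2 when 1 library was left out. The shares of all genes called there were 36.9%, 42.4%, 33.9% and 29.6% in the same order, and 21.6% without 4502. DESeq2 on all 12 libraries called 4, 11 and 12 of the related genes in the 3 comparisons, as compared with 0, 2 and 0 of 118 by edgeR. Of all genes this DESeq2 fit called 3.71%, 6.22% and 7%. Over all genes edgeR called 46, 246 and 0, DESeq2 on all 12 libraries 680, 1059 and 1057, DESeq2 on the 2 groups 427, 444 and 5777, limma-voom 108, 2007 and 7311, and edgeR on the 2 groups 0, 0 and 5586. The cause was not tested.

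Log2 fold changes of 31 gene and analysis combinations changed sign, and none of these was called on either side. In *Mtmr2* KO as compared with WT, *Egr1* turned to 0.29 in limma-voom, 0.0035 with DESeq2's size factors, 0.012 with at least 10 counts in every library and 0.61 with 4502 and 4503 both left out, where *Fosb* turned to 0.081 and *Egr3* to 0.35. When 1 library was left out, *Egr1* ranged from -0.36 to 0.23, *Egr3* from -0.56 to 0.17, *Ier2* from -0.22 to 0.10, *Dusp1* from -0.11 to 0.53 and *Btg2* from -0.022 to 0.31. In niacin-treated as compared with *Mtmr2* KO, *Egr1* turned to -0.037 and *Egr3* to -0.027 in limma-voom, and *Egr1* to -0.39 and *Dusp1* to 0.042 with both libraries left out. With 1 library left out *Egr1* ranged from -0.033 to 0.57 and *Dusp1* from -0.48 to 0.18. In niacin-treated *Mtmr2* KO as compared with WT, *Fosb* turned to -0.47 and *Egr3* to -0.13 in limma-voom, and with 1 library left out *Fosb* ranged from -0.11 to 0.54, *Egr1* from -0.040 to 0.38, *Dusp1* from -0.088 to 0.22 and *Nr4a1* from -0.20 to 0.042. Precision is limited by 4 mice per group and, for *Egr3* and *Fosb*, by counts as low as 14 and 22 in a library.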
